A study of Mus musculus with 6 samples.

Results

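The clustered protocadherins are 58 genes of 1 stretch of mouse chromosome 18, of 49997 genes in the deposited table. The rule for members reads symbols only and takes all genes named Pcdha, Pcdhac, Pcdhb, Pcdhga, Pcdhgb or Pcdhgc with a number, while the family was picked with earlier results of these data known. The alpha cluster holds 14 of them (chromosome 18, 36930285 to 37188897, GRCm38), the beta cluster 22 (37264998 to 37521419) and the gamma cluster 22 (37661775 to 37841873), with positions from the RefSeq annotation of GRCm38.p6. Polyadenylated RNA was sequenced from 6 mouse retinas, 1 retina per library. The 3 retinas labelled Samd7 KO carried the genotype label "Samd7 knockout (-10A)" and were taken from males at postnatal day 31. The 3 wild-type retinas were c57Bl6/j and were taken from males at postnatal day 36, so that genotype and age cannot be told apart. Whether a group's retinas are from different mice is not stated, and p-values then measure only the spread between these retinas, which may be technical.

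Clustered protocadherins are cell-surface proteins of the cadherin superfamily that bind like to like between neurons. In the alpha and gamma clusters each transcript joins its own variable first exon to constant exons shared by the whole cluster, and each beta gene is a single coding exon with no constant part. Most neurons switch on a random few of the variable promoters, under the control of distant enhancers, CTCF and cohesin, while the C-type isoforms (Pcdhac1, Pcdhac2, Pcdhgc3, Pcdhgc4 and Pcdhgc5) are chosen more regularly by cell type. In the mouse retina the gamma cluster is known for the self-avoidance of starburst amacrine cell dendrites and for the survival of inner retinal neurons.

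The values, called normalized reads here, are read counts scaled by a size factor for each library, and the counts recovered from them totalled 44.2 M to 53.1 M per library under the KO label and 47.7 M to 62.8 M per wild-type library. The members held 10320 to 18134 of these reads per library. Samd7 itself had 44932 to 57837 normalized reads under the KO label, against 6349 to 8141 in wild type, a difference of 6.57-fold that goes against the label as far as its RNA is concerned, and the groups are therefore named by their labels. Among markers of retinal cells, 5 of 7 rod genes fell in the KO-labelled libraries, with summed levels of 2332790 to 2532850, against 3965250 to 4348140 normalized reads in wild type. In the same libraries 6 of 7 microglia genes rose (sums of 4271 to 4831, against 2796 to 3302 in wild type), 5 of 5 red blood cell genes rose (5661 to 8293, against 1467 to 2232), and 5 of 6 pigment epithelium genes fell (848 to 2081, against 3373 to 5709). Cone markers summed to 469013 to 491796, against 125972 to 128866 in wild type, with Opn1sw 9.53-fold higher and Opn1mw lower and 4 of 6 not called. Of 6 Müller glia genes Slc1a3 rose and Glul fell (sums of 131250 to 147024, against 145089 to 163208), of 3 astrocyte genes Gfap rose (7867 to 9858, against 2687 to 3613), and of 6 endothelial and pericyte genes Kdr rose (6744 to 7615, against 4445 to 5155). Lens genes stood apart in wild type 3 alone, with a sum of 4334 normalized reads, against 26.0 to 49.7 in the KO-labelled libraries and 42.8 and 45.5 in the other wild-type libraries. Of the markers of inner retinal neurons, where these genes are mostly known to act, limma called 0 of 7 bipolar, 0 of 4 horizontal, 0 of 7 amacrine, 0 of 6 starburst amacrine and 0 of 9 ganglion cell genes, and edgeR and DESeq2 called 0 as well. Summed bipolar markers were 53186 to 59964 normalized reads under the KO label, against 49267 to 52482 in wild type, horizontal cell markers 5393 to 6532, against 5026 to 5359, and starburst markers 8961 to 9307, against 8405 to 8649, all without overlap, while the amacrine and ganglion cell sums overlapped. With an unadjusted p under 0.05, which 14.5% of all tested genes met on the higher and 12.1% on the lower side, 5 bipolar and 1 horizontal gene lay higher and 1 amacrine and 3 ganglion genes lower, and limma-voom with sample quality weights (weighted limma-voom) called 4 bipolar genes higher and 1 ganglion gene lower. None of these markers was at 0 in all libraries.

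Reads of the clustered protocadherins were 1.33-fold more abundant in the retinas labelled Samd7 KO, and 1 member, Pcdhac2, stood apart from the other tested members with a 2.97-fold rise. The 58 members together gave 14334, 18802 and 16628 normalized reads in KO-labelled libraries 1, 2 and 3, against 13844, 11169 and 12265 in wild type 1, 2 and 3. Of the 54 members that passed the filter on low values, 9 rose and 0 fell with limma at an adjusted p under 0.05, where 6.79% of all tested genes rose and 5.21% fell, 12% in all. The members' share called higher was 16.7%. With no adjustment, 21 members lay higher and 0 lower at a p under 0.05, where 14.5% of all tested genes lay higher and 12.1% lower. From the recovered reads, edgeR called the same 9 members higher, where it called 7.05% of all tested genes higher, and DESeq2 and weighted limma-voom called 11 and 20 higher, where they called 8.18% and 12.8% of all tested genes higher. All 3 called 0 members lower. The authors' deposited table had 9 members higher at a DESeq2 adjusted p under 0.05, where 8.29% of its genes with an adjusted p were, and 8 of these are among the 9, with Pcdhgb6 in the place of Pcdhb18. The log2 fold change was above 0 in 48 of the 54, against 50.3% of all tested genes, and its median was 0.38, against 0.0018 over all tested genes. This was no trait of the locus alone. The log2 fold change was also above 0 in 19 of 20 tested nonclustered protocadherins and related cadherins. So it was in 23 of 26 tested classical cadherins and catenins. In these lists 20% and 26.9% of the tested genes rose with limma. Outside the cadherins, the log2 fold change was above 0 in 24 of 30 tested binding partners and signalling genes, of which 0 rose with limma. Among genes listed as regulators of promoter choice it was above 0 in 18 of 28 tested, of which 1 rose. In 16 members the 3 KO-labelled libraries lay above the 3 of wild type, a placing found in 15.9% of all tested genes, and in 1 member, Pcdha1, they lay below, a placing found in 15.2%. In bulk tissue, fewer cells of a type and less RNA per cell cannot be told apart, and the part that the lower rod RNA, the altered marker genes and the lens RNA of wild type 3 play in these values was not tested.

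**Figure D1:**
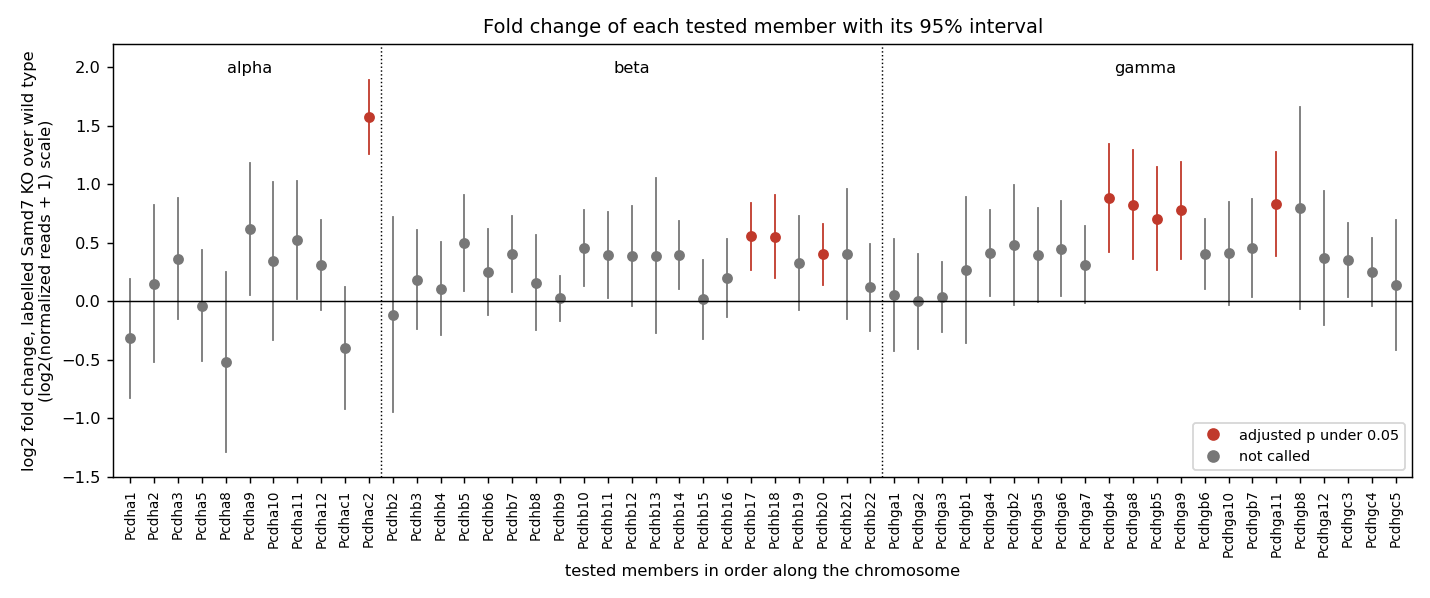
Log2 fold change, libraries labelled Samd7 KO over wild type, for the 54 tested members in their order along the chromosome, with 95% limma intervals and dotted lines between the clusters. Red points passed the adjusted p threshold of 0.05 and grey points did not, and Pcdhac2, at 1.57, lies above all other tested members.

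The clusters differed in how their reads were spread over the members. In the alpha cluster the log2 fold change was above 0 in 7 of 11 tested members, with a median of 0.31, or 0.23 without Pcdhac2, and 1 rose. In the beta and gamma clusters it was above 0 in 20 of 21 and 21 of 22 tested members, with medians of 0.39 and 0.41. The alpha cluster gave 16.4 ± 0.635% of all member reads in KO-labelled libraries and 11.6 ± 0.172% in wild type (SD, n = 3 each), with no overlap between the groups. The beta share was 37.5 ± 1.37% in KO-labelled libraries and 40.9 ± 2.59% in wild type, and the gamma share 46.1 ± 0.924% in KO-labelled libraries and 47.5 ± 2.41% in wild type, and both overlapped. Without Pcdhac2 the alpha members gave 5.98 ± 0.455% in KO-labelled libraries and 6.96 ± 0.192% in wild type, so that the larger alpha share in KO-labelled libraries was that of Pcdhac2.

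Pcdhac2, a C-type alpha isoform known in the mouse for the tiling of serotonergic axons, was the 1 alpha member that rose. Its transcript unit runs from 37143678 to 37187663 on chromosome 18 (GRCm38), with a variable exon of its own and the constant exons of the cluster downstream. Normalized reads were 1450, 1979 and 1764 in KO-labelled libraries 1, 2 and 3, and 686, 478 and 583 in wild type 1, 2 and 3. Every KO-labelled library lay above every wild-type library, and the lowest of them held more than the highest of wild type by more than the range within either group. The means were 1731 ± 266 in KO-labelled libraries and 582 ± 104 in wild type (SD, n = 3 each), with a log2 fold change of 1.57 (SE 0.15, 95% interval 1.26 to 1.89, limma adjusted p = 1.83e-05). It was called in each of the 19 other ways the test was run. In the authors' deposited table its log2 fold change was 1.57 (DESeq2 adjusted p = 1.71e-25), and Pcdhac2 was the only member whose change exceeded a log2 fold change of 1 in the authors' own test against that bound (DESeq2 adjusted p = 0.0125).

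As a sum, the rest of the alpha cluster did not separate the groups. The other 13 alpha members summed to 827, 1065 and 1081 normalized reads in the KO-labelled libraries and to 948, 802 and 840 in wild type, and the groups overlapped. Pcdhac2 gave 63.6 ± 1.51% of all alpha reads in KO-labelled libraries and 40.1 ± 2.43% in wild type (SD, n = 3 each). The ratio of Pcdhac2 to the sum of the other alpha members was 1.75, 1.86 and 1.63 in the KO-labelled libraries, against 0.724, 0.596 and 0.694 in wild type, so that the groups stayed apart on a measure within each library that its scaling does not touch. For all 14 alpha members the sums were 2277, 3044 and 2845 in KO-labelled libraries, against 1634, 1280 and 1422 in wild type, a 1.88-fold difference that became 1.15-fold without Pcdhac2.

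Pcdhac1, the other C-type alpha isoform, gave 66.6, 97.5 and 73.1 normalized reads in KO-labelled libraries, against 113, 74.7 and 131 in wild type, and the groups overlapped (log2 fold change -0.40, limma adjusted p = 0.314, 95% interval -0.92 to 0.12). The difference in log2 fold change between these neighbours was not tested.

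The 12 variable alpha genes encode the isoforms that single neurons express in random combinations. With limma, 0 of the 9 that passed the filter were called, and their log2 fold changes lay between -0.52 (Pcdha8) and 0.61 (Pcdha9). Unadjusted, 2 lay higher and 0 lower at a p under 0.05, against 14.5% and 12.1% of all tested genes. From the recovered reads, edgeR and DESeq2 called 0 and weighted limma-voom called 3 higher. Pcdha12 had the highest level of the variable alpha genes per kb, with 186, 222 and 280 normalized reads in KO-labelled libraries and 209, 182 and 160 in wild type. These ranges overlapped, with a log2 fold change of 0.31 (limma adjusted p = 0.292, 95% interval -0.075 to 0.69). Pcdha11 was the 1 variable alpha gene with all KO-labelled libraries above wild type (84.6, 78.8 and 105, against 77.9, 64.9 and 46.1), by a margin under 1 normalized read between the nearest libraries. Pcdha3, Pcdha5 and Pcdha10 overlapped between the groups, with log2 fold changes of 0.36, -0.037 and 0.35. Pcdha2 was uneven within the KO-labelled group, with 58.7, 164 and 133 in KO-labelled libraries and 101, 89.8 and 103 in wild type. Pcdha1, at 42.9, 34.2 and 43.3 in KO-labelled libraries and 43.6, 58.4 and 48.9 in wild type, was the 1 tested member below wild type in all libraries (limma adjusted p = 0.425).

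**Figure D2:**
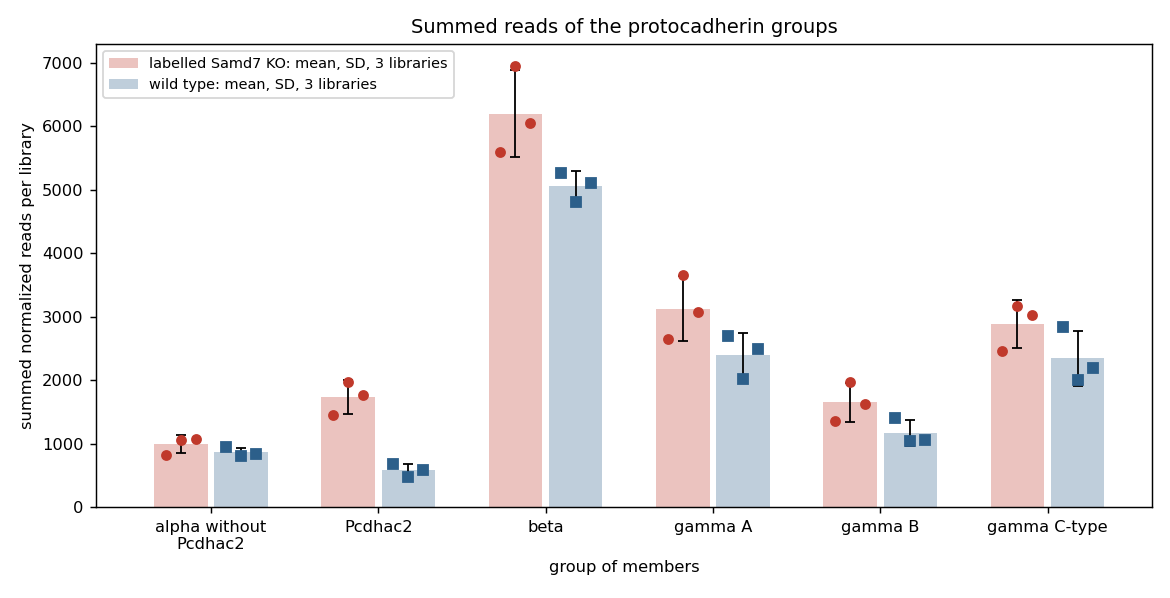
Summed normalized reads per library of Pcdhac2, the other alpha members, the beta cluster and the 3 gamma types, with libraries labelled Samd7 KO (red) left of wild type (blue), bars at the means, error bars of 1 SD and a point for each of 3 libraries. Pcdhac2 and the beta sum are apart between the groups, and the other sums overlap.

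Pcdha4 and Pcdha7 held 0 reads in all 6 libraries, where a count of 0 allows up to 3 reads, or 2.57 to 3.39 normalized reads, per library. Pcdha6 held 4 reads over the KO-labelled libraries and 1 over wild type. For these 3 genes the RefSeq annotation holds a second gene, Gm37013, Gm38666 or Gm38667, that starts 41, 6 or 9 bases from the start of Pcdha4, Pcdha6 or Pcdha7 and runs on to the end of the gamma cluster. Those genes held 1, 0 and 0 reads. The sources used here do not say how reads in overlapping annotations were counted, and the 3 alpha genes are therefore not described as silent. Pcdhb1, the other member below the filter and among the genes that lack the promoter element shared by most variable members, held 1, 5 and 5 reads in KO-labelled libraries and 0, 0 and 2 in wild type, a ratio of 6.01 after scaling with a 95% counting interval of 1.31 to 55.8. That interval leaves out the spread between libraries, the groups overlapped, and the change of Pcdhb1 was not tested. Just inside the filter stood Pcdhb2, Pcdha8 and Pcdhgb8, at means of 27.2, 28.3 and 33.6 normalized reads over the 6 libraries.

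The beta genes, whose proteins have the cadherin repeats but no constant intracellular part, lay slightly higher almost throughout. Of the 21 tested, 3 rose, or 14.3%, where 6.79% of all tested genes rose. Of the other 18, 17 had a log2 fold change above 0. The cluster summed to 5594, 6950 and 6058 normalized reads in KO-labelled libraries, against 5265, 4809 and 5105 in wild type, 1.23-fold higher with no overlap. In 8 of 21 beta members the KO-labelled libraries all lay above wild type, a placing found in 15.9% of all tested genes.

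The 3 beta members that rose, Pcdhb17, Pcdhb18 and Pcdhb20, lie within a few genes of each other towards the end of the cluster. Pcdhb17 (37485021 to 37488290) had 594, 811 and 677 normalized reads in KO-labelled libraries, against 515, 442 and 449 in wild type, with the KO-labelled libraries all higher and the gap to wild type smaller than their own range. It rose 1.48-fold (log2 fold change 0.56, SE 0.13, limma adjusted p = 0.0168). Pcdhb20 (37504264 to 37507660) had 650, 832 and 672 in KO-labelled libraries, against 559, 511 and 550 in wild type, again without overlap. It rose 1.33-fold (log2 fold change 0.40, SE 0.12, limma adjusted p = 0.0473). Pcdhb18 (37489465 to 37494503) had 135, 150 and 147 in KO-labelled libraries, against 110, 89.8 and 96.0 in wild type. It rose 1.47-fold (log2 fold change 0.55, SE 0.16, limma adjusted p = 0.0472). The Pcdhb18 call was lost in 11 of the 19 other ways the test was run, among them the omission of each library in turn. The Pcdhb20 call was lost in 9 of the 19 and the Pcdhb17 call in 4. Pcdhb19, which lies between Pcdhb18 and Pcdhb20, had 201, 333 and 241 in KO-labelled libraries and 179, 209 and 217 in wild type, which overlapped (limma adjusted p = 0.284).

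Pcdhb9, the beta gene with the highest level per kb, was the most level of the abundant members. It gave 1062, 1060 and 1050 normalized reads in KO-labelled libraries, against 1079, 1021 and 1014 in wild type. The 6 values were close, and the log2 fold change of 0.027 had a 95% interval of -0.16 to 0.22. With all libraries, that interval lies below the beta median and below the log2 fold changes of the 3 that rose. It overlaps the intervals of Pcdhb18 (0.20 to 0.91) and Pcdhb20 (0.14 to 0.66), but not that of Pcdhb17 (0.27 to 0.84). Differences between these members were not tested. Pcdhb15 was as close, at 122, 135 and 121 in KO-labelled libraries and 124, 122 and 127 in wild type, on a wider interval of -0.32 to 0.35. Pcdhb9 gave 17.2 ± 1.87% of all beta reads in KO-labelled libraries and 20.5 ± 0.685% in wild type (SD, n = 3 each), without overlap. Between these extremes, Pcdhb10, Pcdhb14 and Pcdhb7 had all KO-labelled libraries above wild type and log2 fold changes of 0.45, 0.40 and 0.40, with limma adjusted p values of 0.0700, 0.0796 and 0.104.

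Of the other beta members, Pcdhb5 and Pcdhb11 also had all KO-labelled libraries above wild type. Pcdhb5 had 114, 128 and 132 normalized reads in KO-labelled libraries, against 109, 81.2 and 76.2 in wild type, a log2 fold change of 0.50 that did not pass (limma adjusted p = 0.112). Pcdhb11 had 166, 172 and 181, against 161, 122 and 114 in wild type, a log2 fold change of 0.40 that did not pass either (limma adjusted p = 0.154). The groups overlapped in Pcdhb12, Pcdhb13 and Pcdhb21, at 0.39, 0.39 and 0.40, and in Pcdhb3, Pcdhb4, Pcdhb6, Pcdhb8, Pcdhb16 and Pcdhb22, whose log2 fold changes lay between 0.11 (Pcdhb4) and 0.25 (Pcdhb6). Pcdhb2 alone lay below 0, at -0.12.

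**Figure D3:**
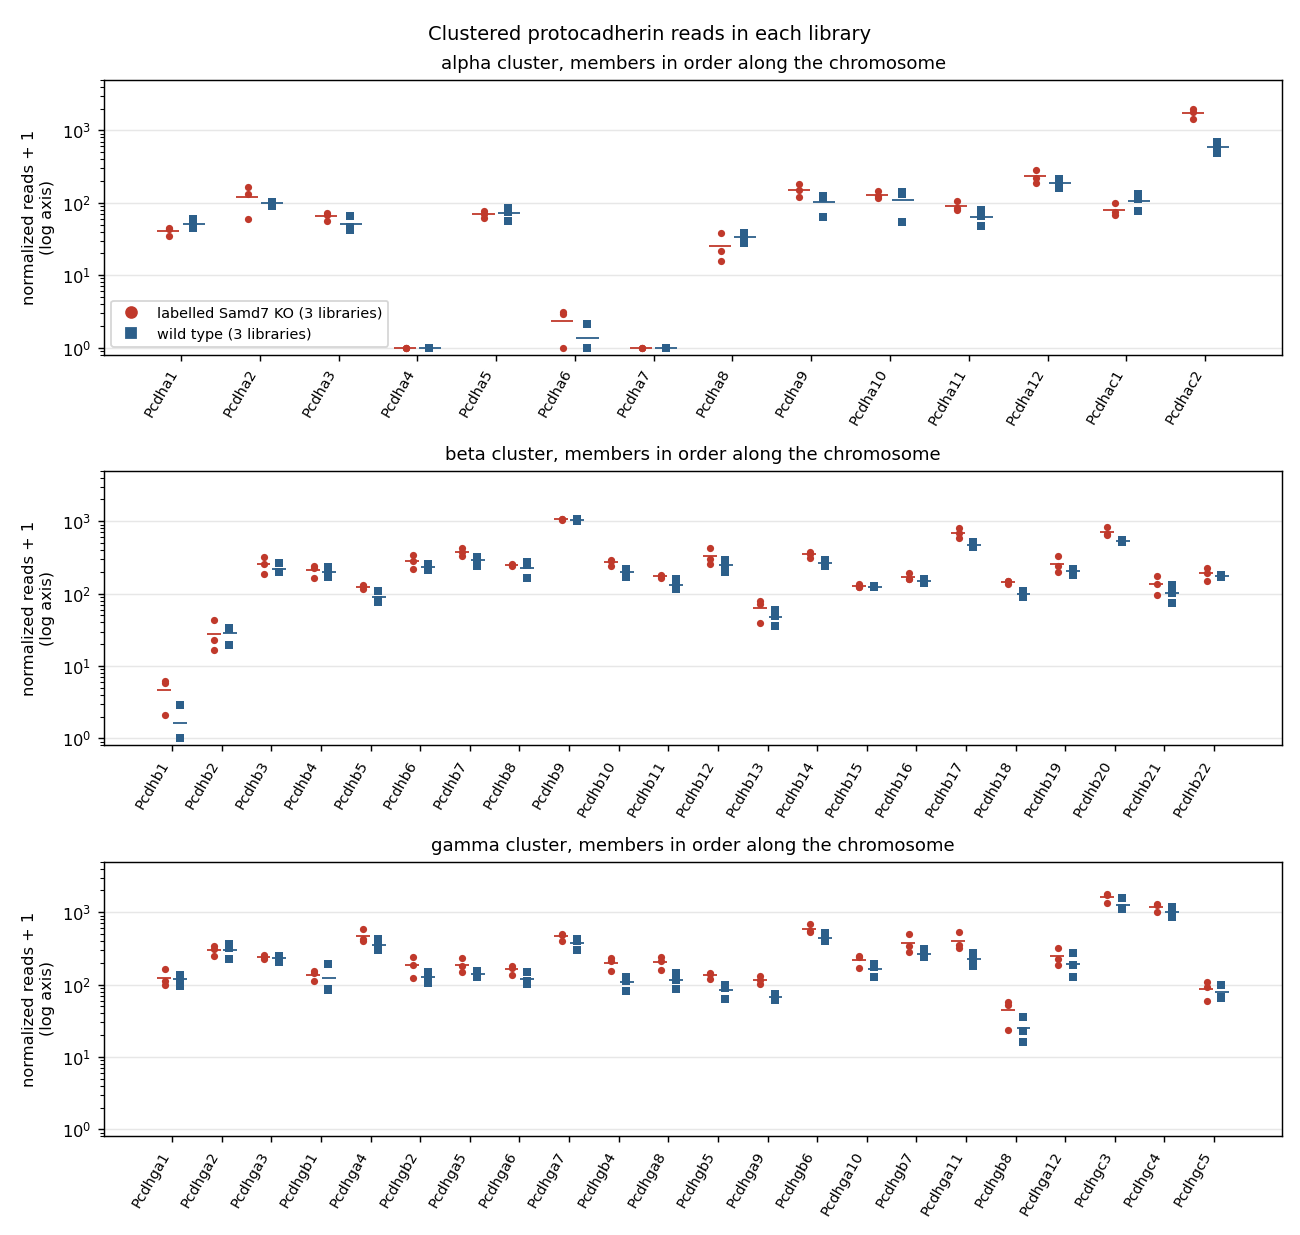
Normalized reads plus 1, on a log axis, of all 58 members in each library, 1 panel per cluster in chromosome order, with libraries labelled Samd7 KO (red circles) left of wild type (blue squares) and lines at the group means. Pcdhac2 is apart by a wide gap, Pcdhb17 and Pcdhga11 by narrower ones, and Pcdhb9 lies level at 1014 to 1079 normalized reads.

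Where 6.79% of all tested genes rose, the gamma cluster had the most members that rose, 5 of 22, or 22.7%. These were 5 of the 19 members of the A and B types, the variable members that neurons choose at random, while 0 of 3 C-types were called, and the difference between the types was not tested. Median log2 fold changes were 0.40 for gamma A, 0.48 for gamma B and 0.25 for the C-types. The cluster summed to 6463, 8808 and 7725 normalized reads in KO-labelled libraries, against 6944, 5080 and 5737 in wild type, 1.29-fold higher on average with library KO 1 below wild type 1. The sums of gamma A, gamma B and the C-types were 1.30-fold, 1.41-fold and 1.23-fold higher, and each overlapped between the groups.

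Pcdhgb4, Pcdhga8, Pcdhgb5 and Pcdhga9 are consecutive on the chromosome, with starts at 37720376, 37725706, 37730971 and 37736936. Pcdhgb4 had 151, 212 and 229 normalized reads in KO-labelled libraries, against 128, 81.2 and 111 in wild type, and rose 1.85-fold (log2 fold change 0.88, SE 0.21, limma adjusted p = 0.0185). Pcdhga8 had 158, 243 and 208, against 143, 86.6 and 114 in wild type, and rose 1.77-fold (log2 fold change 0.83, SE 0.21, limma adjusted p = 0.0263). In both, library KO 1 was the lowest of its group and wild type 1 the highest of its own, and these came near each other. Pcdhgb5 had 120, 139 and 141, against 89.0, 96.3 and 62.1 in wild type, and rose 1.62-fold (limma adjusted p = 0.0395). Pcdhga9 had 99.3, 131 and 114, against 65.9, 73.6 and 59.3 in wild type, and rose 1.73-fold (limma adjusted p = 0.0196). These last were more evenly apart, with a gap wider than the range within wild type for Pcdhga9.

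Further along, Pcdhga11 (start 37755773) had 319, 533 and 352 normalized reads in KO-labelled libraries, against 274, 215 and 179 in wild type, and rose 1.80-fold (log2 fold change 0.83, SE 0.20, limma adjusted p = 0.0203). The libraries did not overlap, and KO 2 stood well above the other 2 of its group. Just after Pcdhga9 lies Pcdhgb6, which had the highest level per kb of the ranked A and B types. That ranking left out Pcdhga4 and Pcdhgb8. Pcdhgb6 had 546, 684 and 527, against 509, 399 and 419 in wild type. It was also without overlap, but its log2 fold change of 0.40 did not pass (limma adjusted p = 0.0828). At the start of the cluster Pcdhga2 and Pcdhga3 were not called, with log2 fold changes of -0.0010 and 0.037 and 95% intervals of -0.40 to 0.40 and -0.26 to 0.34. The interval of Pcdhga2 reaches the gamma A median of 0.40, and differences along the cluster were not tested.

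The other A and B members overlapped between the groups, and their log2 fold changes lay between 0.053 (Pcdhga1) and 0.80 (Pcdhgb8). Pcdhgb8, a transcribed pseudogene in the RefSeq annotation, had 22.6, 56.0 and 51.0 normalized reads in KO-labelled libraries, against 35.1, 15.2 and 21.6 in wild type, and its limma adjusted p was 0.221. Pcdhgb2, Pcdhgb7, Pcdhga6, Pcdhga10, Pcdhga4 and Pcdhga5 lay at 0.48, 0.46, 0.45, 0.41, 0.41 and 0.39. Pcdhga12, Pcdhga7 and Pcdhgb1 lay at 0.37, 0.31 and 0.27.

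Some exons of members are covered by antisense genes in the GENCODE annotation of the same build. Gm37165 overlaps exons of Pcdhga7 and Pcdhga8, and Gm26672 overlaps exons of Pcdhga10, Pcdhgb7, Pcdhga11 and Pcdhga12. Both of these antisense genes have no value in the table analysed here. Other antisense genes overlap exons of Pcdha4, Pcdha6, Pcdha11, Pcdha12, Pcdhb12, Pcdhga1 and Pcdhgc3. The sources used here do not state the strand setting of the counting. Sense and antisense reads therefore cannot be told apart at Pcdhga8 and Pcdhga11, nor at the other members named here. No antisense exon overlap was annotated at Pcdhac2, Pcdhb17, Pcdhb18, Pcdhb20, Pcdhgb4, Pcdhgb5 or Pcdhga9. The members are close paralogs, and alpha and gamma transcripts share their constant exons. The handling of reads that match several members is not stated either, and values of single variable members are uncertain to that extent.

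The C-type gamma isoforms include the most abundant members of the family in these retinas, and 0 of the 3 were called with limma. Pcdhgc3, which is known to promote dendrite arborization in the mouse cortex, had 1351, 1769 and 1725 normalized reads in KO-labelled libraries, against 1574, 1099 and 1144 in wild type, with wild type 1 inside the range of the KO-labelled libraries (log2 fold change 0.35, limma adjusted p = 0.145). Pcdhgc4, the isoform required for neuronal survival in the mouse, had 1015, 1292 and 1242, against 1162, 844 and 987 in wild type, again overlapping (log2 fold change 0.25, limma adjusted p = 0.255). Pcdhgc5 was low, at 91.4, 107 and 58.7, against 98.4, 67.1 and 64.9 in wild type, with a log2 fold change of 0.14. The 95% intervals of these differences, 0.036 to 0.67, -0.038 to 0.54 and -0.42 to 0.70 on the log2 scale, lie below the interval of Pcdhac2. Pcdhgc3 alone was higher at an unadjusted p under 0.05, edgeR and DESeq2 called 0 of the 3, and weighted limma-voom called Pcdhgc3.

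Levels can be compared between members only per length. Normalized reads per kb were taken over the bases that no other annotated gene of the strand covers for alpha and gamma members and over the RefSeq span for beta members, for 52 of the 54 tested. Pcdhgb8 was left out, and so was Pcdhga4, which had few such bases. Pcdhga4 held 471 normalized reads in KO-labelled libraries and 354 in wild type, on average, over 1570 such bases. By the mean over both groups, Pcdhgc3 stood first, with 629 per kb in KO-labelled libraries and 495 in wild type, and Pcdhac2 second, with 572 in KO-labelled libraries and 192 in wild type. Pcdhgc4 followed with 407 in KO-labelled libraries and 343 in wild type, then Pcdhb9 with 346 in KO-labelled libraries and 340 in wild type. In wild type alone, Pcdhac2 therefore stood below Pcdhgc4 and Pcdhb9, and in the KO-labelled libraries above both. The lowest per kb were Pcdhb2 and Pcdha8, at 9.66 and 9.70 in KO-labelled libraries and at 9.94 and 13.1 in wild type. The median member gave 35.8 reads per kb in the alpha cluster, 62.2 in beta and 81.9 in gamma in KO-labelled libraries, against 39.1, 56.3 and 58.8 in wild type.

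**Figure D4:**
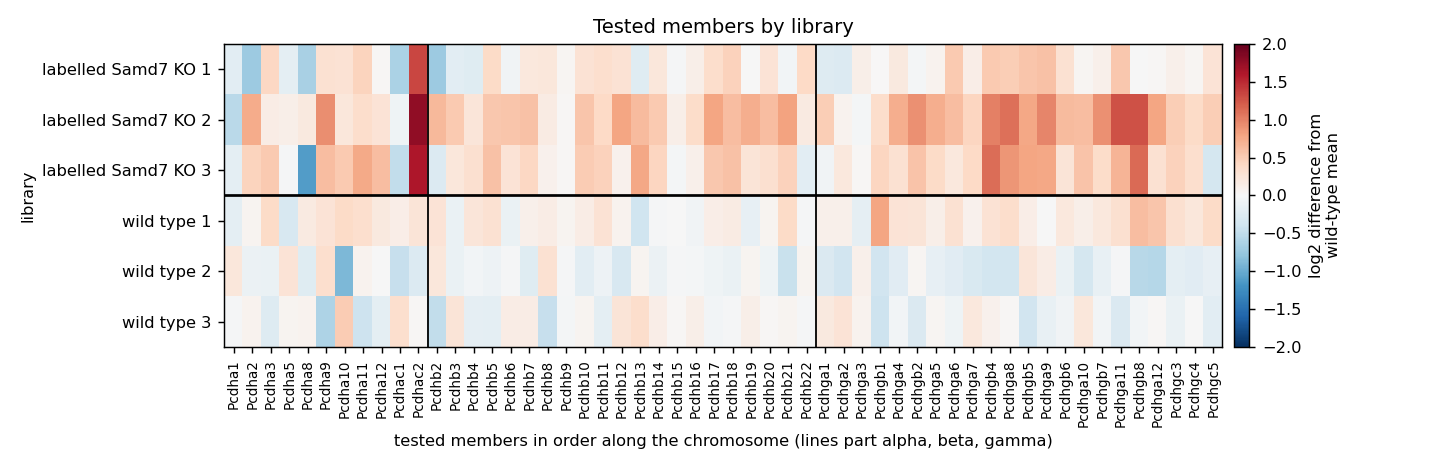
Deviation of each tested member in each library from its wild-type mean, on the log2 scale, with members across in chromosome order and libraries labelled Samd7 KO above wild type. Pcdhac2 is high in all 3 KO-labelled libraries, and in the gamma cluster library KO 2 is the highest of its group in 17 of 22 members and wild type 2 the lowest of its own in 15.

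Many members also shared an order of the libraries within each group. Library KO 1 was the lowest of its group in 39 of the 54 tested members and KO 2 the highest in 37, against 35.2% and 37.4% of all tested genes. Wild type 1 was the highest of its group in 30 members and wild type 2 the lowest in 29, against 39.6% and 37.8% of all tested genes. In the gamma cluster KO 1 was the lowest in 18 of 22 members and wild type 1 the highest in 15. Total reads were lowest in KO 1 and highest in wild type 1, and the part of depth or of any feature of these retinas in the shared order was not tested.

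Except for Pcdhac2, the calls rested on having all 6 libraries. Without KO 2 only Pcdhac2 and Pcdhb17 were called, without KO 3 only Pcdhac2 and Pcdhga11, without wild type 2 only Pcdhac2, Pcdhgb5 and Pcdhga9, and without wild type 3 only Pcdhac2. Leaving out wild type 1 left 8 calls, 6 of them among the 9 with all libraries, and leaving out KO 1 left 15, 8 of them among the 9. In each of these the count of members that fell was 0. Under these omissions Pcdhac2 kept its call, and over all alternatives its log2 fold change lay between 1.44 and 1.70 with a highest adjusted p of 0.000236.

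**Figure D5:**
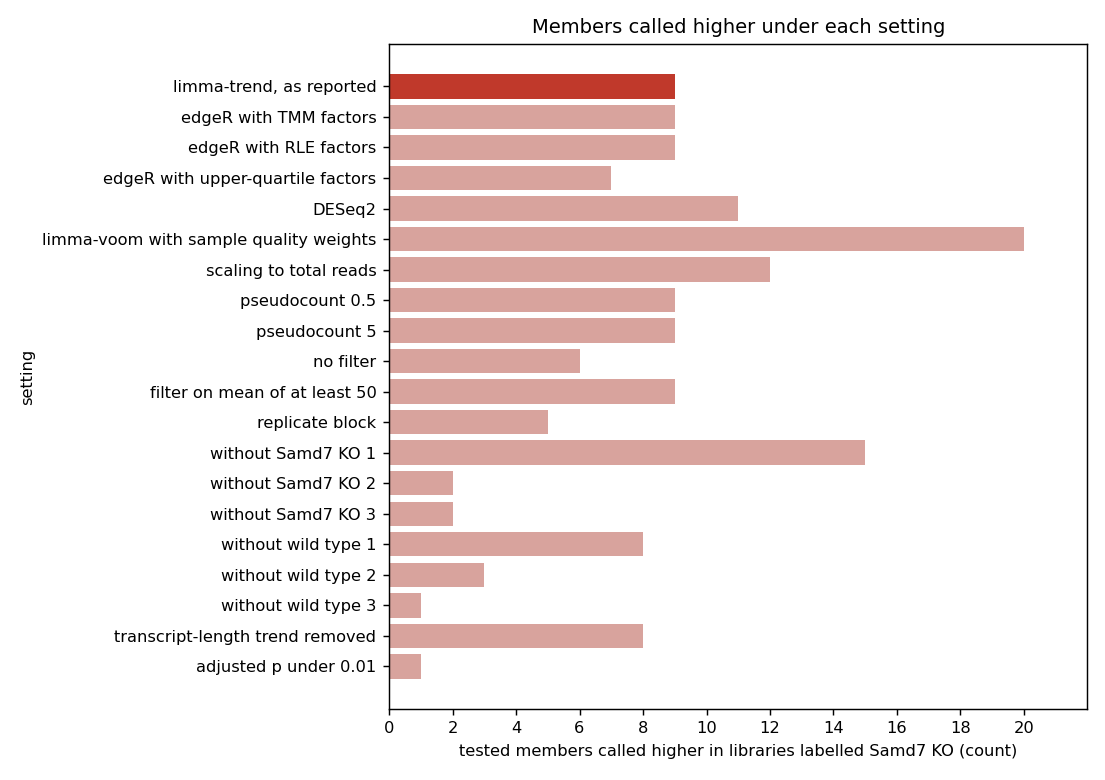
Number of tested members called higher in the retinas labelled Samd7 KO under each way of running the test, with the reported test in dark red at the top. The count is 9 with all libraries and limma-trend, between 1 and 15 when 1 library is left out, and 20 with weighted limma-voom.

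Protein-coding genes within and beside the locus that are no members were looked at by position, and 0 of 8 were called with limma, edgeR or DESeq2. Taf7, a general transcription factor gene between the beta and gamma clusters, had 1464, 1427 and 1109 normalized reads in KO-labelled libraries, against 1321, 1592 and 1638 in wild type (log2 fold change -0.19, limma adjusted p = 0.360). Slc25a2, a mitochondrial carrier gene beside it, averaged 18.7 in KO-labelled libraries and 20.4 in wild type. Hars2 and Zmat2 before the alpha cluster and Diaph1, Hdac3, Rell2 and Fchsd1 after the gamma cluster had log2 fold changes between -0.28 and 0.24. Of all 8, 1 lay higher and 2 lower at an unadjusted p under 0.05, against 14.5% and 12.1% of all tested genes. Weighted limma-voom called 1 higher and 1 lower. The difference between members and flanking genes was not tested.

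A list of 28 tested genes held known or possible regulators of the choice of protocadherin promoters. It included CTCF, the cohesin subunits and loaders, and DNA and histone methylation enzymes. Of the 28, 1 rose and 0 fell with limma, with a median log2 fold change of 0.067. Of all tested genes, 6.79% rose and 5.21% fell. Pds5a, a cohesin-associated regulator, had 1114, 1539 and 1188 normalized reads in KO-labelled libraries, against 987, 945 and 945 in wild type, and rose 1.33-fold (limma adjusted p = 0.0495). The call for Pds5a was lost with 5 of the 6 libraries left out in turn. Before adjustment, 4 listed genes lay higher and 3 lower at a p under 0.05, where 14.5% of all tested genes lay higher and 12.1% lower. From the recovered reads, edgeR and DESeq2 each called 1 higher and 1 lower, and weighted limma-voom called 4 higher and 3 lower. Hnrnpk, Dnmt3a, Mau2 and Smc3, the most highly read of the list, had log2 fold changes of 0.22, 0.049, -0.038 and 0.014, and none of these 4 was called.

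Of 30 tested binding partners and signalling genes downstream of the clustered protocadherins, 0 rose and 0 fell with limma. Their median log2 fold change was 0.10, and 24 of the 30 lay above 0, against 50.3% of all tested genes. In 9 of the 30 all KO-labelled libraries lay above wild type and in 1 below, placings found in 15.9% and 15.2% of all tested genes. At an unadjusted p under 0.05, 8 of the 30 lay higher and 1 lower, against 14.5% and 12.1% of all tested genes, while edgeR called 1 higher, DESeq2 called 1 higher and 1 lower, and weighted limma-voom called 4 higher and 1 lower. Cyfip2, of the WAVE actin-regulatory complex, had 9933, 14739 and 12896 normalized reads in KO-labelled libraries, against 11290, 8611 and 10248 in wild type, which overlapped (limma adjusted p = 0.163). The small GTPases Rac1 and Rhoa and the protein kinase C substrate Marcks had log2 fold changes of 0.10, 0.057 and 0.17.

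Among the protocadherins, Fat and other nonclustered cadherins outside the locus, 4 of 20 tested rose and 0 fell with limma. The shares over all tested genes were 6.79% and 5.21%, and the median log2 fold change of the list was 0.21. Unadjusted, 6 of the 20 lay higher and 0 lower at a p under 0.05, against 14.5% and 12.1% of all tested genes, and edgeR, DESeq2 and weighted limma-voom called 0 lower. Fat3, an atypical cadherin that shapes amacrine cell dendrites in the mouse, had 587, 1119 and 812 normalized reads in KO-labelled libraries, against 262, 170 and 260 in wild type, and rose 3.64-fold (limma adjusted p = 0.000189). Pcdh1, a delta protocadherin, rose 2.57-fold with 1115, 1026 and 1083 in KO-labelled libraries, against 435, 377 and 442 in wild type (limma adjusted p = 4.45e-06). Fat1 rose 2.19-fold and Pcdh15, a photoreceptor and hair cell protocadherin, 1.37-fold. Cdhr1, the photoreceptor cadherin with the most reads in the list, Pcdh9 and Celsr3 had log2 fold changes of 0.15, 0.17 and -0.14 and were not called.

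Of 26 tested classical cadherins and catenins, the adhesion molecules that share the cadherin repeat but signal through catenins, 7 rose and 2 fell with limma. Over all tested genes the shares were 6.79% and 5.21%, and the list's median log2 fold change was 0.26. Unadjusted, 11 lay higher and 2 lower at a p under 0.05, against 14.5% and 12.1% of all tested genes. With edgeR, DESeq2 and weighted limma-voom, 7, 8 and 10 were called higher, and 2 were called lower with each. Cdh20 rose 5.15-fold, with 2717, 2772 and 2357 normalized reads in KO-labelled libraries, against 518, 497 and 510 in wild type (limma adjusted p = 1.18e-08). Cdh2, Cdh11, Cdh13, Cdh18, Ctnnb1 and Ctnnd1 rose 1.26-fold to 1.39-fold. Cdh4 fell, to 2274 ± 271 in KO-labelled libraries, against 3127 ± 293 in wild type (SD, n = 3 each), and Cdh16 fell to 29.2 ± 17.5, against 69.6 ± 11.2. In each of these except Cdh20, leaving out at least 1 library ended the call. Ctnna1 and Ctnnd2 had log2 fold changes of 0.20 and 0.26 and were not called.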

How the data were processed

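Gene expression was measured in 6 libraries, 3 labelled Samd7 KO and 3 wild type. Per the labels' protocols, each library came from polyadenylated RNA of 1 retina, copied with a low-input kit and amplified for 15 cycles. Molecular identifiers are not described, so counting intervals and floors cover counting error only. The submitters' processing notes name the genome builds GRCm38 and mm10 and the tools STAR 2.7.3a, HTSeq 0.12.4, cutadapt 3.0, SAMtools 1.9, DRAGEN and DESeq2. Tool roles, strandedness and the treatment of multiply mapped reads: not given in the sources used here.

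Per the file headers and the values, the authors' deposited signal is a read count scaled by a size factor for its library. The authors' table adds, per the file headers, DESeq2's log2 fold change, standard error and Wald score, with a p-value and an adjusted p-value for each of 2 tests. Whole reads, within 0.01 reads, were recovered for 100% of the 166478 values above 0.

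The main test was limma-trend (limma 3.58.1, R 4.3.3) on log2(value + 1), a scale that understates changes of low genes. It covered the 20277 genes that reached 10 or more normalized reads in 3 or more libraries. P-values are two-sided, Benjamini-Hochberg adjusted over all tested genes, with calls made under 0.05. Folds are ratios of group means. Cluster sums and shares were compared by value only, since an exact permutation test of 3 against 3 libraries cannot go below p = 0.1. Alternatives were edgeR 4.0.16 (TMM, RLE and upper-quartile factors), DESeq2 1.42.0 and limma-voom with sample quality weights on the recovered reads, scaling to total reads, pseudocounts of 0.5 and 5, no filter, a filter on a mean of 50, an adjusted p under 0.01, the replicate number as a block, and the omission of each library in turn. Removal of the trend with transcript length was chosen after seeing the data. The scripts were tested on simulated data.

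The members and gene lists were chosen with earlier results of these data known. Named were all members, Samd7, the called genes and the 4 most highly read genes of each pathway list, and the members beside the filter. Genes flanking the locus were named by position, outside that rule. Replicates of a group differed by 6.89 to 33.9 in chi-square per degree of freedom, so none repeated another. No sequence is printed.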

Additional observations from a re-analysis of the deposited data

How the results depend on the processing

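The count of 9 members called higher stayed within 1.5 times with edgeR (TMM 9, RLE 9, upper quartile 7), DESeq2 (11), total-read scaling (12), other pseudocounts and filters (6 to 9) and removal of the length trend (8, of which 7 are among the 9). It was 20 with limma-voom and sample quality weights, which change 2 choices together, 1 at an adjusted p under 0.01 and 1 to 15 with 1 library left out. With the replicate number as a block it was 5, and 1624 genes were called. Same-numbered libraries did not deviate together (correlations of -0.18, -0.13 and -0.014), and differently numbered ones reached 0.19. With 3 libraries per group these values cannot decide whether the numbers pair libraries. The 2432 called genes became 4650 with weighted limma-voom, 1189 at an adjusted p under 0.01 and 1313 to 3247 with 1 library left out. With 1 library left out the median log2 fold change lay between 0.099 (without wild type 2) and 0.41 for alpha and between 0.19 (without KO 2; 0.24 without wild type 1) and 0.43 for beta members, and between 0.26 (without KO 2) and 0.56 for gamma members, which have 0.41 with all libraries. Removing the length trend gave medians of 0.14, 0.28 and 0.32 for alpha, beta and gamma. The 1.88-fold alpha sum was 1.20-fold without the C-types, and the median alpha member ratio was 1.21. The share of called genes that were higher was 56.6%, but 48.9% with upper-quartile factors and 71.2% with scaling to total reads. The cause of these shifts was not tested.

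Reversals touched only genes that were not called. With 1 library left out, log2 fold changes ranged from -0.14 to 0.59 for Pcdha2, -0.20 to 0.099 for Pcdha5, -0.10 to 0.60 for Pcdha10, -0.50 to 0.19 for Pcdhb2, -0.0040 to 0.28 for Pcdhb4, -0.069 to 0.31 for Pcdhb8, -0.034 to 0.042 for Pcdhb15, -0.018 to 0.29 for Pcdhb22, -0.16 to 0.21 for Pcdhga1, -0.19 to 0.14 for Pcdhga2, -0.051 to 0.090 for Pcdhga3, -0.041 to 0.39 for Pcdhgc5, -0.031 to 0.052 for Smc3, -0.080 to 0.025 for Mau2 and -0.034 to 0.18 for Dnmt3a. Upper-quartile factors gave -0.0086 for Pcdhb9, -0.018 for Pcdhb15, -0.0012 for Pcdhga3 and -0.021 for Smc3. Weighted limma-voom gave -0.028 for Pcdhb15, -0.027 for Pcdhb22, -0.11 for Pcdhga1, -0.021 for Pcdhgc5, -0.037 for Smc3 and 0.034 for Mau2. Total-read scaling gave 0.020 for Pcdha5, 0.056 for Pcdhga2 and 0.019 for Mau2. Without the length trend the values were -0.030 for Pcdhga1, -0.047 for Pcdhga3, -0.072 for Smc3, -0.072 for Dnmt3a and -0.034 for Rhoa.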
